A study of Mus musculus with 14 samples.

Results

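Tregs, regulatory T cells, that lacked PD-1 on their surface were compared with other CD4 T cells sorted out of the same kind of mouse tumour. The comparison used 9 of the 14 libraries of the series, 4 of PD-1- Tregs and 5 of CD4 T cells, and the libraries of PD-1+ Tregs stayed out of the fit. Female C57BL/6 mice of 8 to 12 weeks, with the genotype label GATIR Foxp3Cre-rfp Gata3Cre-yfp in every group, carried subcutaneous AE17-OVA tumours, a mouse mesothelioma line with the model antigen ovalbumin. Intraperitoneal treatment at day 10 was either 200 µg of an anti-PD-L1 antibody (clone MIH5) or an isotype antibody (clone 2A3), whose dose the labels do not give apart. PD-1- Tregs had 2 isotype and 2 anti-PD-L1 libraries, and CD4 T cells had 2 isotype and 3 anti-PD-L1 libraries. At day 13 cells were sorted by CD4, CD25, a red reporter of Foxp3, and PD-1. The labels also give this time as day 13 after treatment, so the interval from treatment to harvest is uncertain. The library method was Smart-seq2, a full-length cDNA amplification for few cells that has no molecular identifiers, so counts are reads and not molecules.

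Tregs are CD4 T cells that restrain immune responses and are specified by the transcription factor Foxp3. They carry the high-affinity IL-2 receptor, compete for IL-2 through it, and use CTLA-4 and membrane-bound latent TGF-β among other means of suppression. Conventional CD4 T cells in a tumour include helper cells that make cytokines such as IFN-γ and IL-21, and some acquire a cytotoxic programme with granzymes and perforin. PD-1 is an inhibitory receptor induced by antigen stimulation, and PD-L1 is its ligand.

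The PD-1- Treg libraries held fewer genes than those of CD4 T cells. A count was recorded for 8027 to 8801 genes in the Treg libraries and for 12119 to 14535 genes in the CD4 libraries, without overlap (exact two-sided permutation test over 126 assignments, p = 0.00794, the smallest it can give; adjusted p = 0.0344 over 13 measures). Total counts ran from 10638848 to 12823841 in Tregs and from 12930566 to 15030804 in CD4 T cells, again without overlap. Replicates of PD-1- Tregs were also less alike: over the genes with a count in all 9 libraries, log2 CPM (counts per 1000000 reads of a library, after TMM scaling) correlated at r = 0.591 between the isotype Treg libraries and at 0.525 between the treated ones, against 0.935 to 0.973 within the CD4 groups. Of the 5287 genes with a count in all 4 Treg libraries, 99.8% had one in all 5 CD4 libraries, whereas 46.9% of the 11240 genes found in all CD4 libraries were found in every Treg library. There were 842 genes with a count in all CD4 libraries and in no Treg library, and 0 genes of the opposite kind. Transcripts of Y-linked genes were present in 2 libraries, treated CD4 replicate 3 at 208 CPM and treated PD-1- Treg replicate 2 at 254 CPM, although every mouse is labelled female. Fewer cells of a type and less RNA per cell cannot be told apart in such bulk libraries.

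**Figure D1:**
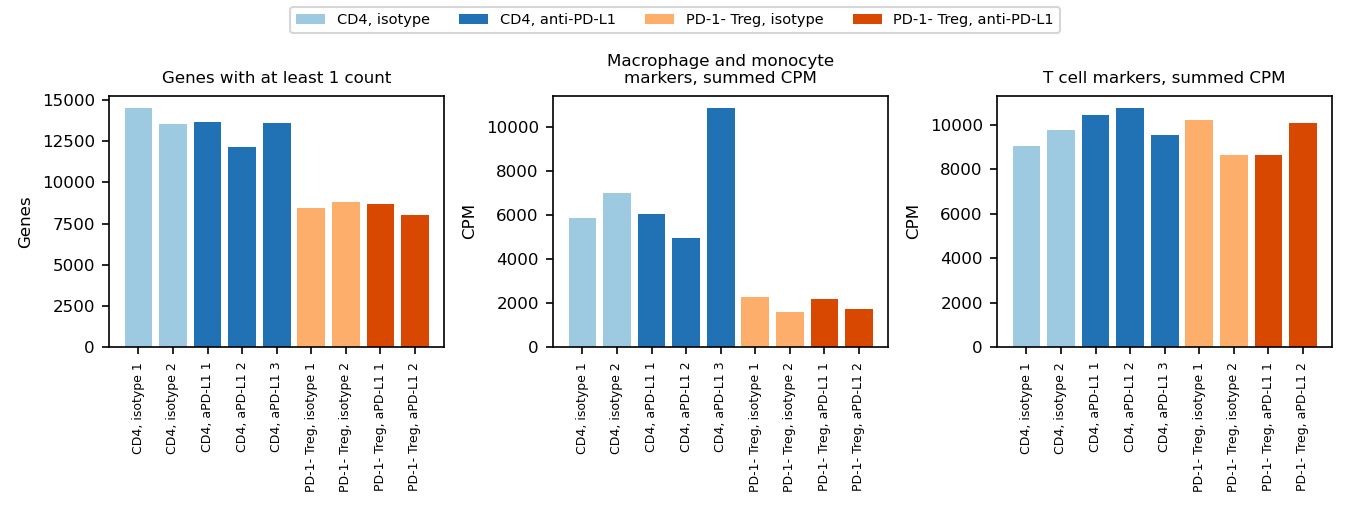
Each bar is 1 library. The panels give the number of genes with at least 1 count, the summed CPM of 21 macrophage and monocyte markers, and the summed CPM of 10 T cell markers, coloured by cell type and treatment. Treg libraries lie below every CD4 library in the first and second panels and overlap them in the third.

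Of 6 summed sets of markers of other cells, only that of macrophages and monocytes differed between the cell types past the threshold. The 21 macrophage and monocyte markers summed to 1598 to 2282 CPM in PD-1- Tregs and to 4958 to 10860 CPM in CD4 T cells, 3.56 times higher on average in CD4 T cells (exact permutation p = 0.00794, adjusted p = 0.0344). Markers of dendritic cells and MHC class II summed to 9075 to 15960 CPM in Tregs and 14990 to 28940 CPM in CD4 T cells (exact permutation, adjusted p = 0.0619). Markers of CD8 T and NK cells summed to 0 to 58.87 CPM and 40.52 to 91.78 CPM (adjusted p = 0.258 by the same exact test). The T cell markers themselves overlapped, with 8625 to 10220 CPM in Tregs and 9040 to 10770 CPM in CD4 T cells (adjusted p = 0.554, exact permutation test). B cell, neutrophil and mast cell, and mesothelial and stromal markers overlapped as well, the last of these being 1.11 times the CD4 level in Tregs. The counts of list members given below are over all tested members, and beside them stand the counts over members with a count in all 9 libraries, since a gene at or near 0 in Tregs could pass the low-count filter through CD4 T cells alone.

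Of 13098 genes tested, 849 (6.48%) passed edgeR's quasi-likelihood test at a Benjamini-Hochberg adjusted p under 0.05, 41 higher (0.313%) and 808 lower (6.17%) in PD-1- Tregs. Of the 808 lower genes, 763 had a count of 0 in at least 1 Treg library and 586 had 0 in all 4. Weight is therefore given to the 5266 tested genes with a count in every library. Of these, 86 passed (1.63%), 41 higher (0.779%) and 45 lower (0.855%). Their median log2 change was -0.02 (51.6% below 0), against -0.68 over all genes tested (70.2% below 0). Of the 86 genes, 32 of the higher ones lay above every CD4 library in all 4 Treg libraries, and 40 of the lower ones lay below, where 2.58% and 4.31% of the 5266 genes separated in these directions. These calls depend on the libraries used. Leaving out either isotype CD4 library, treated CD4 replicate 1 or treated CD4 replicate 3 left 0 higher genes and 1 lower gene, leaving out treated PD-1- Treg replicate 1 gave 94 higher genes, and leaving out both libraries with Y-linked transcripts left 0 in each direction. No called gene named here changed direction in these fits. A tie at adjusted p = 0.0321, shared by 563 of the called genes, means that the adjusted p ranks few of them.

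**Figure D2:**
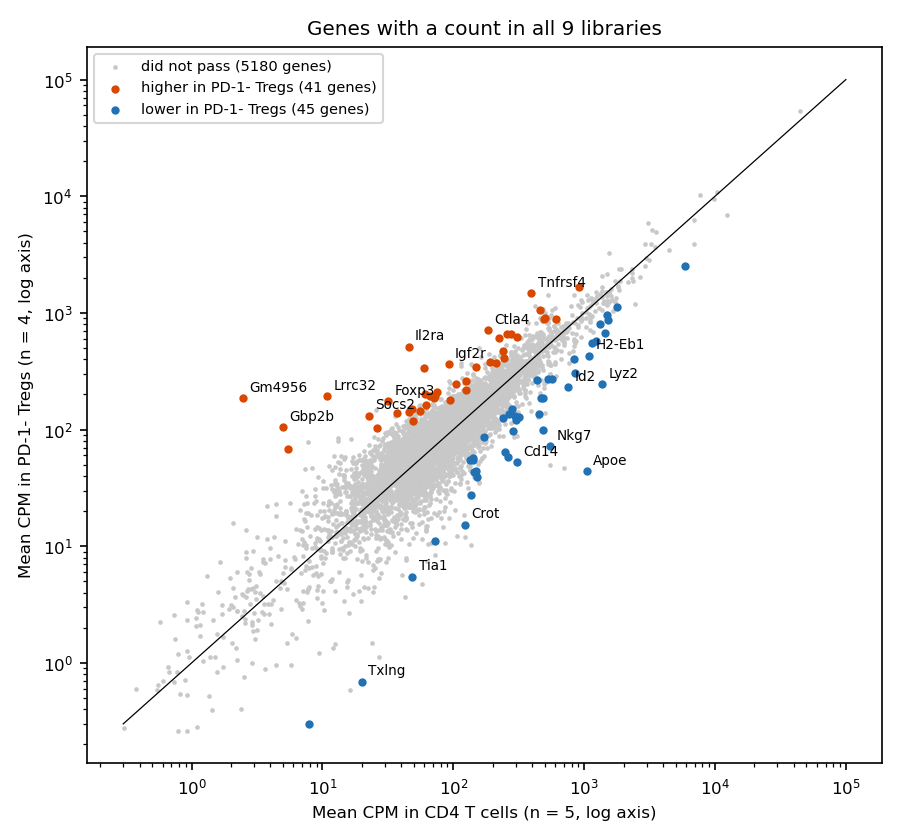
Each point is 1 of the 5266 tested genes with a count in all 9 libraries, with its mean CPM in CD4 T cells (n = 5) on the x axis and in PD-1- Tregs (n = 4) on the y axis, both log axes; the line marks equal levels. The 41 genes that were higher and the 45 that were lower lie off the line, with Gm4956 and Gbp2b farthest above it and Txlng and Apoe far below.

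Genes that identify Tregs were among the higher genes. Of 15 Treg identity genes tested, 7 were higher, 0 were lower and 8 did not pass, with a median log2 change of 1.77. All 7 were among the 12 members with a count in every library (median 1.93). The background is 0.313% higher, 6.17% lower and a median of -0.68 over all genes tested, and 0.779%, 0.855% and -0.02 over genes detected in all 9 libraries. Foxp3 and Il2ra are among the 7 and belong to the sort itself, so their difference checks the labels and is no finding. The other higher members were Capg, Ctla4, Izumo1r, Lrrc32 and Tnfrsf18. Both medians include the sort genes. Foxp3 stood at 117, 191, 194 and 202 CPM in the isotype and then the treated Treg libraries and at 16.3, 21.3, 37, 28.8 and 55.1 CPM in the isotype and then the treated CD4 libraries, a log2 change of 2.63 ± 0.35 (SE; edgeR adjusted p = 0.0321). Il2ra, the IL-2 receptor alpha chain known as CD25, stood at 679, 566, 557 and 251 CPM in Tregs and at 13.8, 13.7, 39.6, 82.2 and 77.9 CPM in CD4 T cells (log2 change 3.96 ± 0.66). Neither gene overlapped between the cell types.

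Lrrc32 encodes GARP, which docks latent TGF-β on the Treg surface. Its level was 131 and 193 CPM in the isotype Treg libraries, 52.1 and 401 CPM in the treated ones, 7.96 and 8.22 CPM in isotype CD4 T cells and 16.8, 1.27 and 20.2 CPM in treated CD4 T cells. Every Treg library lay above every CD4 library, the Tregs varied widely among themselves, and the log2 change was 4.23 ± 0.85 (SE; edgeR adjusted p = 0.0321). Ctla4, the inhibitory receptor that binds B7 ligands, stood at 648, 690, 347 and 1180 CPM in Tregs and at 86.3, 111, 216, 189 and 325 CPM in CD4 T cells. The lowest Treg library and the highest CD4 library, both treated, lay close together, and the log2 change was 2.16 ± 0.40. Izumo1r, the folate receptor family member called FR4, stood at 884, 494, 333 and 723 CPM in Tregs against 208 to 248 CPM in the 5 CD4 libraries, with a log2 change of 1.41 ± 0.27. The CD4 libraries were nearly equal for this gene and the Treg libraries were not.

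Capg, an actin filament capping protein, stood at 1210, 1710, 2170 and 1570 CPM in Tregs and at 466, 547, 1010, 1230 and 1290 CPM in CD4 T cells (log2 change 1.06 ± 0.22). Its ranges overlapped over all libraries, and the treated CD4 libraries were above the isotype ones. Ikzf2, which encodes the transcription factor Helios and was named after its values were seen, did not pass although its ranges did not overlap: it stood at 216 to 668 CPM in Tregs and 63.6 to 184 CPM in CD4 T cells, with a log2 change of 1.77 ± 0.49 and an edgeR adjusted p of 0.0725.

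The TNF receptors OX40 and GITR, costimulatory receptors that Tregs carry at high levels, were also higher. Tnfrsf4, which encodes OX40, stood at 1610, 1220, 1080 and 1970 CPM in Tregs and at 191, 171, 399, 499 and 709 CPM in CD4 T cells. All Treg libraries lay above all CD4 libraries, with a log2 change of 2.19 ± 0.35 (SE; edgeR adjusted p = 0.0321). Tnfrsf18, which encodes GITR and lies beside Tnfrsf4 on chromosome 4, stood at 829, 538, 751 and 1440 CPM in Tregs and at 215, 254, 566, 689 and 733 CPM in CD4 T cells. The cell types were apart within each treatment, but isotype Treg replicate 2 lay below all 3 treated CD4 libraries, and the log2 change was 1.10 ± 0.27 (edgeR adjusted p = 0.0443). Of the 15 TNF receptor genes tested, 2 were higher and 3 were lower, with a median of 0.53. Over the 9 detected in all libraries, 2 were higher and 0 lower, with a median of 0.93. The background is 0.313% higher and 6.17% lower over all genes tested (median -0.68). Over genes detected in all 9 libraries it is 0.779% and 0.855% (median -0.02). The 3 lower ones, all with zeros in Tregs, were Tnfrsf1a, the TNF receptor type 1, Ltbr, the lymphotoxin beta receptor, and Tnfrsf8, which encodes CD30. Tnfrsf1a was at 25 to 42.8 CPM in CD4 T cells and at 0.257 CPM in a single Treg library. Ltbr was at 3.11 to 11.6 CPM in CD4 T cells and at 0 in all Treg libraries. Taking 3 counts in each library as the floor, Ltbr was at least 26.3-fold lower and Tnfrsf8 at least 13.6-fold lower. Here and below, such a bound covers the sampling of reads, and not transcripts lost before sequencing.

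Among 16 genes of IL-2 receptor signalling and its STAT5 response, 2 were higher, Il2ra and Socs2, and 0 were lower. Il2ra belongs to the sort, so its call is no finding, and Socs2 is the only other called member. Both genes were among the 13 list members detected in all libraries, whose median was 0.51. All genes tested gave 0.313% higher and 6.17% lower. All genes detected in the 9 libraries gave 0.779% and 0.855%, with a median of -0.02. Socs2, an inhibitor of cytokine signalling that STAT5 induces, stood at 32.5, 84.2, 186 and 225 CPM in Tregs and at 5.7, 7.19, 28.2, 41.5 and 31 CPM in CD4 T cells. Both cell types were higher in treated than in isotype libraries, so the ranges overlapped over all 9 libraries but not within either treatment (log2 change 2.87 ± 0.44, SE; edgeR adjusted p = 0.0321). Among 22 genes of the interferon-gamma response, 2 were higher, Gbp2 and Gbp4, 1 was lower, and the median was 0.38. Over the 19 detected in all libraries 2 were higher and 0 lower, with a median of 0.49. Gbp2 and Gbp4 encode interferon-inducible GTPases, with log2 changes of 1.04 ± 0.21 and 0.78 ± 0.19. Gbp2 ranged from 228 to 481 CPM in Tregs and from 149 to 272 CPM in CD4 T cells, and Gbp4 from 273 to 476 and from 188 to 241 CPM. The lower gene was Cxcl9, a chemokine induced by IFN-γ, at 6.52 to 20.5 CPM in CD4 T cells and 0 in all Treg libraries (at least 47.0-fold lower). That 1 lower gene of 22 is near the 6.17% of all genes tested and says nothing of the list.

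The largest separated increases included genes outside those lists. Gm4956, annotated as a transcribed pseudogene, was at 331, 232, 27.2 and 152 CPM in Tregs and at 1.35 to 4.86 CPM in CD4 T cells, with a log2 change of 5.96 ± 0.82. Gbp2b, another guanylate-binding protein, was at 81, 27.8, 239 and 73.4 CPM in Tregs and at 1.35 to 11.3 CPM in CD4 T cells (log2 change 4.39 ± 1.00, SE; edgeR adjusted p = 0.0373). A pseudogene and a member of a gene family can share reads with close copies, and no label says how such reads were counted, so these levels are uncertain. Sfrp2, a secreted modulator of Wnt signalling better known from stromal cells, was at 131, 82.1, 20.8 and 41.4 CPM in Tregs and at 2.1 to 10.7 CPM in CD4 T cells (log2 change 3.45 ± 0.75). The summed stromal and mesothelial markers, which do not include Sfrp2, were at 505.4 to 1976 CPM in Tregs and 329.7 to 1715 CPM in CD4 T cells. The source of the Sfrp2 reads was not tested.

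Igf2r, the receptor that carries mannose-6-phosphate proteins and also binds latent TGF-β, stood at 540, 438, 286 and 184 CPM in Tregs and at 75.2 to 104 CPM in CD4 T cells, a log2 change of 1.82 ± 0.25. Prg4, the proteoglycan lubricin, stood at 103 to 193 CPM against 27.4 to 51.3 CPM (1.91 ± 0.36). Cdc7, a kinase that fires replication origins, stood at 72.1 to 148 CPM against 18 to 33.8 CPM (1.98 ± 0.46). Trim59, a ubiquitin ligase, stood at 110 to 278 CPM against 41.5 to 78.1 CPM (1.63 ± 0.31). These 4 genes separated the cell types completely. The glucose transporter gene Slc2a3, the only one of 18 glycolysis genes that passed, was at 79.6, 74.9, 230 and 221 CPM in Tregs and at 31.4 to 67.3 CPM in CD4 T cells (1.57 ± 0.35). Both treated Treg libraries were above both isotype ones. Of all genes tested 0.313% were higher, and 0.779% of those detected in all 9 libraries. A single call among 18 genes, 13 of them detected in all libraries, says nothing of the glycolysis list. Nfkbia, the NF-κB inhibitor that NF-κB itself induces, had the smallest change among the higher genes, at 801 to 933 CPM against 507 to 679 CPM (0.56 ± 0.12).

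**Figure D3:**
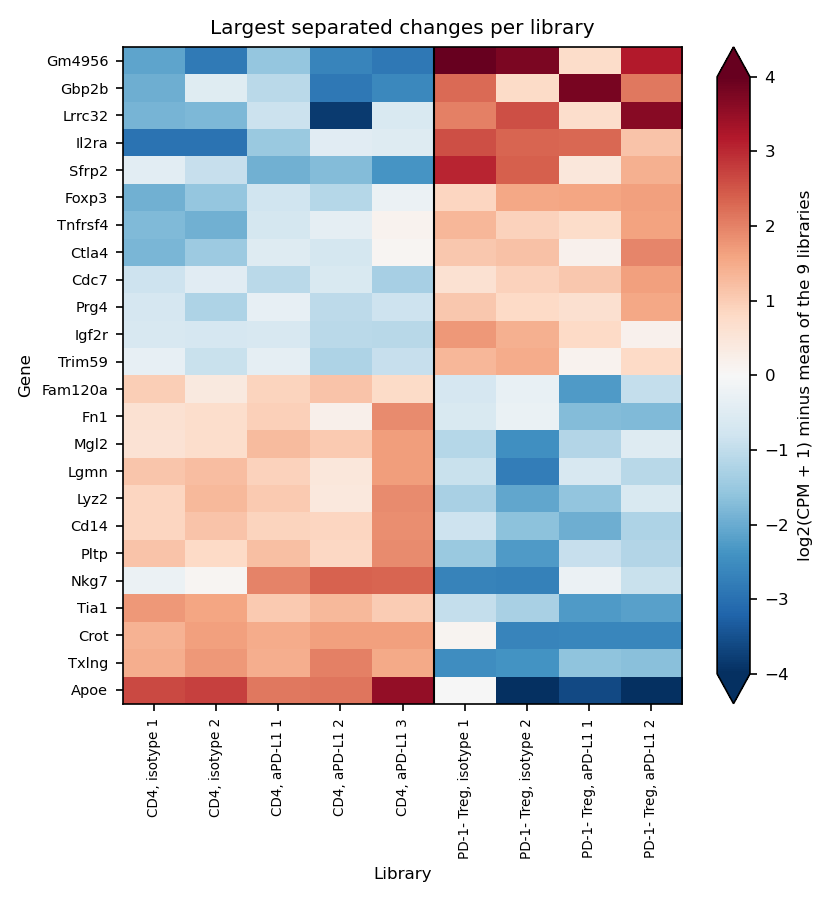
Rows are the 12 largest increases and 12 largest decreases among called genes with a count in all 9 libraries, 10 CPM or more on average where they were higher, and no overlap between cell types; columns are libraries. Colour is log2(CPM + 1) minus the gene's mean over the 9 libraries. The black line parts CD4 T cells (left) from PD-1- Tregs (right); in CD4 T cells, treated replicate 3 is highest for Apoe, Lyz2, Cd14, Pltp, Lgmn, Mgl2 and Fn1.

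Genes of T helper 1 and cytotoxic effector function were among the lower genes. Of 22 such genes tested, 6 were lower, 0 were higher and 16 did not pass. Their median log2 change was -2.36, where all genes tested gave 6.17% lower and a median of -0.68. Over the 10 detected in all 9 libraries 2 were lower, Nkg7 and Ccl5, with a median of -1.65, against 0.855% lower and a median of -0.02 for all such genes. Nkg7, a protein of cytotoxic granules, was at 25.7, 25.6, 144 and 91.7 CPM in Tregs and at 144, 180, 681, 884 and 865 CPM in CD4 T cells. The highest Treg library and the lowest CD4 library nearly met at 144 CPM, and in each treatment the cell types were far apart. Its log2 change of -2.73 ± 0.20 (SE) had the smallest adjusted p of all genes (edgeR, 0.00392). Among the called genes named here, it was the only one that passed whichever library was left out, with an adjusted p of at most 0.0349. Within isotype libraries its log2 change was -2.66 and within treated libraries -2.78 (edgeR adjusted p = 0.0225 and 0.0353).

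Ccl5, a chemokine of effector T cells, was at 20.7, 28.8, 130 and 51.4 CPM in Tregs and at 63, 83.3, 309, 285 and 578 CPM in CD4 T cells, a log2 change of -1.86 ± 0.38. Treated Treg replicate 1 lay above both isotype CD4 libraries, and in both treatments the Tregs lay below the CD4 T cells. The other 4 lower genes had zeros in Tregs. Tbx21, which encodes the Th1 regulator T-bet, was at 23.9 to 94.4 CPM in CD4 T cells and at 0 to 0.591 CPM in Tregs. The perforin gene Prf1 and the granzyme genes Gzmk and Gzma were at 0 in all Treg libraries, and at least 82.2-fold, 84.3-fold and 31.1-fold lower than in CD4 T cells. Gzmb, the gene of granzyme B, was not called and was not lower in treated Tregs: it was at 0 and 0 CPM in isotype Tregs and 208 and 277 CPM in treated Tregs, against 6.5 and 0 CPM in isotype and 54.5, 42 and 94 CPM in treated CD4 T cells. The summed markers of CD8 T and NK cells, which overlapped between the cell types, did not pass. Of the 10 tested, Cd8b1 alone was lower (6.52 to 13.5 CPM in CD4 T cells and 0 in all Treg libraries, at least 41.7-fold). Over all genes tested 6.17% were lower, and 0 of the 10 markers had a count in all 9 libraries. Of these 10 markers, 5 were at 0 in all Tregs, and the part of CD8 T and NK cells in the result was not tested.

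Of 12 inhibitory receptors tested, Ctla4 was higher and 4 were lower, with a median of -1.25. Over the 7 detected in all libraries the median was 0, and 1 was higher and 1 lower, the latter being the sort gene Pdcd1. The background is 0.313% higher and 6.17% lower over all genes tested, and 0.779% and 0.855% over genes detected in all 9 libraries. Pdcd1, which encodes PD-1 and checks the sort, was at 40.9, 22.3, 45.6 and 47.4 CPM in Tregs and at 85.2, 46.4, 198, 150 and 275 CPM in CD4 T cells, a log2 change of -1.65 ± 0.41 (SE; edgeR adjusted p = 0.0487). Its ranges overlapped by isotype CD4 replicate 2. Lag3, a receptor for MHC class II, was at 12.7 to 55.1 CPM in CD4 T cells and at 0.0955 CPM in a single Treg library. Cd160 and Cd244a, receptors shared by cytotoxic T and NK cells, were at 0 in Tregs and at least 43.2-fold and 74.8-fold lower. Cd274, which encodes PD-L1, the target of the antibody, did not pass: it was at 0, 20.1, 154 and 107 CPM in Tregs and at 12.6 to 44 CPM in CD4 T cells. Cd4 itself did not pass either, at 20.2, 103, 295 and 163 CPM in Tregs and 270 to 523 CPM in CD4 T cells (log2 change -1.59 ± 0.56; edgeR adjusted p = 0.147).

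Of 12 genes of follicular helper T cells, 1 was higher, Izumo1r, and 4 were lower, with a median of -1.40. Over the 7 detected in all libraries 1 was higher and 0 lower, with a median of -0.48. Beside the counts of this paragraph stand 0.313% higher and 6.17% lower of all genes tested. For genes detected in all 9 libraries the shares are 0.779% and 0.855%. The 4 lower ones, each at 0 in at least 3 Treg libraries, were the cytokine gene Il21, the Wnt and BMP antagonist gene Sostdc1, the coactivator gene Pou2af1, which is also strong in B cells, and the transcription factor gene Tox2. Il21 was at 1.83 to 18.3 CPM in CD4 T cells and at 0.0929 CPM in a single Treg library. Sostdc1, Pou2af1 and Tox2 were at 0 in all Tregs, at least 93.5-fold, 69.8-fold and 55.5-fold lower. Of 10 Th2 genes tested, Il4 alone passed, at 0.876 to 2.06 CPM in CD4 T cells and at 0 in Tregs (at least 6.0-fold lower). A single lower gene of 10, where 6.17% of all genes tested were lower, says nothing of the Th2 list. Of the 3 Th2 genes detected in all 9 libraries, 0 passed. Of 17 genes induced by the T cell receptor, Nfkbia was higher, and Egr2 and Nr4a2, transcription factors that antigen signals switch on, were lower. Of the 13 detected in all libraries, Nfkbia alone passed, and the median was -0.29. Egr2 was at 24.9 to 64.4 CPM in CD4 T cells and at 0.886 CPM in a single Treg library. Nr4a2 was at 8.36 to 27.4 CPM in CD4 T cells and at 0 to 0.382 CPM in Tregs.

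Of 20 regulators and receptors of effector Tregs and of 20 chemokine receptors and integrins, 1 each was lower, near the 6.17% of all genes tested. Both were detected in all 9 libraries, as 1 of 12 and 1 of 15 such members, where 0.855% of all such genes were lower. A count of 1 gene says nothing of its list. The gene of the first list was Id2, an inhibitor of E-protein transcription factors. It was at 99.2, 147, 254 and 423 CPM in Tregs and at 341, 294, 921, 1160 and 1050 CPM in CD4 T cells, lower in Tregs within each treatment (log2 change -1.51 ± 0.21). The second was Itgb1, the beta 1 integrin chain, at 167 to 202 CPM in Tregs and 299 to 748 CPM in CD4 T cells (-1.23 ± 0.25). Of 15 suppressive molecules of Tregs, Ctla4 and Lrrc32 were higher and Lag3 and Prf1 were lower. Over the 7 detected in all libraries, 2 were higher and 0 lower, with a median of -0.08. The shares are 0.313% higher and 6.17% lower over all genes tested, and 0.779% and 0.855% over genes detected in all 9 libraries.

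Markers of macrophages and monocytes were among the lower genes. All 21 macrophage and monocyte markers tested had a log2 change below 0, 5 passed, and their median was -3.54. Over the 9 detected in all libraries 3 were lower, with a median of -1.18. The background is 6.17% lower and a median of -0.68 over all genes tested, and 0.855% and -0.02 over genes detected in all 9 libraries. Apoe, a lipid carrier, was at 155, 4.83, 11.8 and 4.8 CPM in Tregs and at 983, 1050, 684, 695 and 1820 CPM in CD4 T cells, so isotype Treg replicate 1 was far above the other Treg libraries and still below every CD4 library (log2 change -5.41 ± 1.26, SE; edgeR adjusted p = 0.0398). Lyz2, the macrophage lysozyme, was at 245, 140, 202 and 392 CPM in Tregs and at 1100, 1490, 1250, 812 and 2240 CPM in CD4 T cells (-2.49 ± 0.37). Cd14, a receptor for lipopolysaccharide, was at 34.1 to 75.8 CPM in Tregs and 243 to 493 CPM in CD4 T cells (-2.55 ± 0.36). None of these overlapped. The complement gene C1qa was at 92.9 to 414 CPM in CD4 T cells and 0 in Tregs, at least 1030-fold lower. Its partner genes were detected in Treg libraries and did not pass, C1qb at 55.7, 0.0929, 30.9 and 113 CPM and C1qc at 105, 0, 0.369 and 1.97 CPM, against 245 to 798 and 103 to 442 CPM in CD4 T cells. The Fc receptor gene Fcgr1 was at least 157-fold lower. Not all defining markers were at 0 in Tregs: Lyz2 and Cd14 were detected in every Treg library.

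The 4 most abundant called genes with 0 counts in all Treg libraries were C1qa, the complement receptor genes C5ar1 and C3ar1, and the scavenger receptor gene Msr1. They were at least 1030-fold, 362-fold, 289-fold and 317-fold lower. Among genes detected in all libraries, the lectin gene Mgl2 (10.5 to 43.8 CPM in Tregs, 93.9 to 200 in CD4 T cells; log2 change -2.26 ± 0.40), the lysosomal protease gene Lgmn (31.1 to 141 and 303 to 695; -2.30 ± 0.44), the phospholipid transfer gene Pltp (5.48 to 15.7 and 53.9 to 116; -2.70 ± 0.63) and the fibronectin gene Fn1 (35.4 to 102 and 143 to 462; -2.10 ± 0.51) were lower without overlap. Of 15 dendritic cell and MHC class II markers, 5 were lower, and 2 of the 6 detected in all libraries (median -0.83). The shares of lower genes are 6.17% over all genes tested and 0.855% over genes detected in all 9 libraries (median -0.02). H2-Eb1 was at 345 to 556 CPM in Tregs and 808 to 1460 CPM in CD4 T cells (-1.35 ± 0.22), and H2-Aa at 461 to 921 and 976 to 2120 CPM (-1.06 ± 0.22). Xcr1, Batf3 and Zbtb46, which mark conventional dendritic cells, were at 0 in all Tregs and at least 81.2-fold, 52.0-fold and 30.3-fold lower. Not every marker of this list went that way: 13 of the 15 had a log2 change below 0 and 2 above it, Clec9a and Cd209a. Clec9a was at 14.4, 0, 10.9 and 0 CPM in Tregs and at 0 to 8.12 CPM in CD4 T cells. Cd209a was at 407 to 1020 CPM in Tregs and 306 to 996 CPM in CD4 T cells, and neither gene passed. The summed macrophage markers and the number of detected genes differed between the sorts together, and their part in the other lower genes was not tested.

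Another 4 lower genes were chosen by size and are not in the marker lists of other cell types used here. Txlng, which encodes gamma-taxilin, was at 0.191 to 1.18 CPM in Tregs and at 17.4 to 25.8 CPM in CD4 T cells (log2 change -5.06 ± 1.20). Crot, a peroxisomal carnitine acyltransferase, was at 43.8, 5.66, 5.84 and 5.82 CPM in Tregs and 108 to 131 CPM in CD4 T cells (-3.41 ± 0.77). Tia1, an RNA-binding protein of stress granules, was at 3.03 to 8.88 CPM and 38.2 to 63 CPM (-3.35 ± 0.83). Fam120a, another RNA-binding protein, was at 16.2 to 66.2 CPM and 108 to 181 CPM (-1.87 ± 0.43). The CD4 libraries were close together for these genes and every Treg library lay below them.

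Many T cell programmes had no called member. None passed among 20 genes of the T cell receptor complex and its proximal signalling (median log2 change -0.26), 17 genes of resting and central T cells (-0.36), 15 of MHC class I presentation (-0.11), 24 of oxidative phosphorylation (0.01), 26 cytosolic ribosomal protein genes (0.13), 19 of the proteasome (0.04) or 19 of the type I interferon response (-0.27). The same held for 20 genes each of mitosis, DNA replication and sterol and fatty acid synthesis (-0.56, -0.30 and -0.35), 21 of the Bcl2 family and cell death, 20 immediate-early and heat shock genes, and 10 Th17 genes. Over members detected in all 9 libraries the medians of the first lists, in the order above, were -0.26, -0.21, -0.11, 0.01, 0.13, 0.04 and -0.17. Those of mitosis, DNA replication and sterol and fatty acid synthesis were 0.15, 0.11 and 0.36, above 0 where the medians over all members were below. The median of all genes was -0.68 over those tested and -0.02 over those detected in all 9 libraries. Of all genes tested, 0.313% were called higher and 6.17% lower, and counts of 0 in lists of this size show little.

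**Figure D4:**
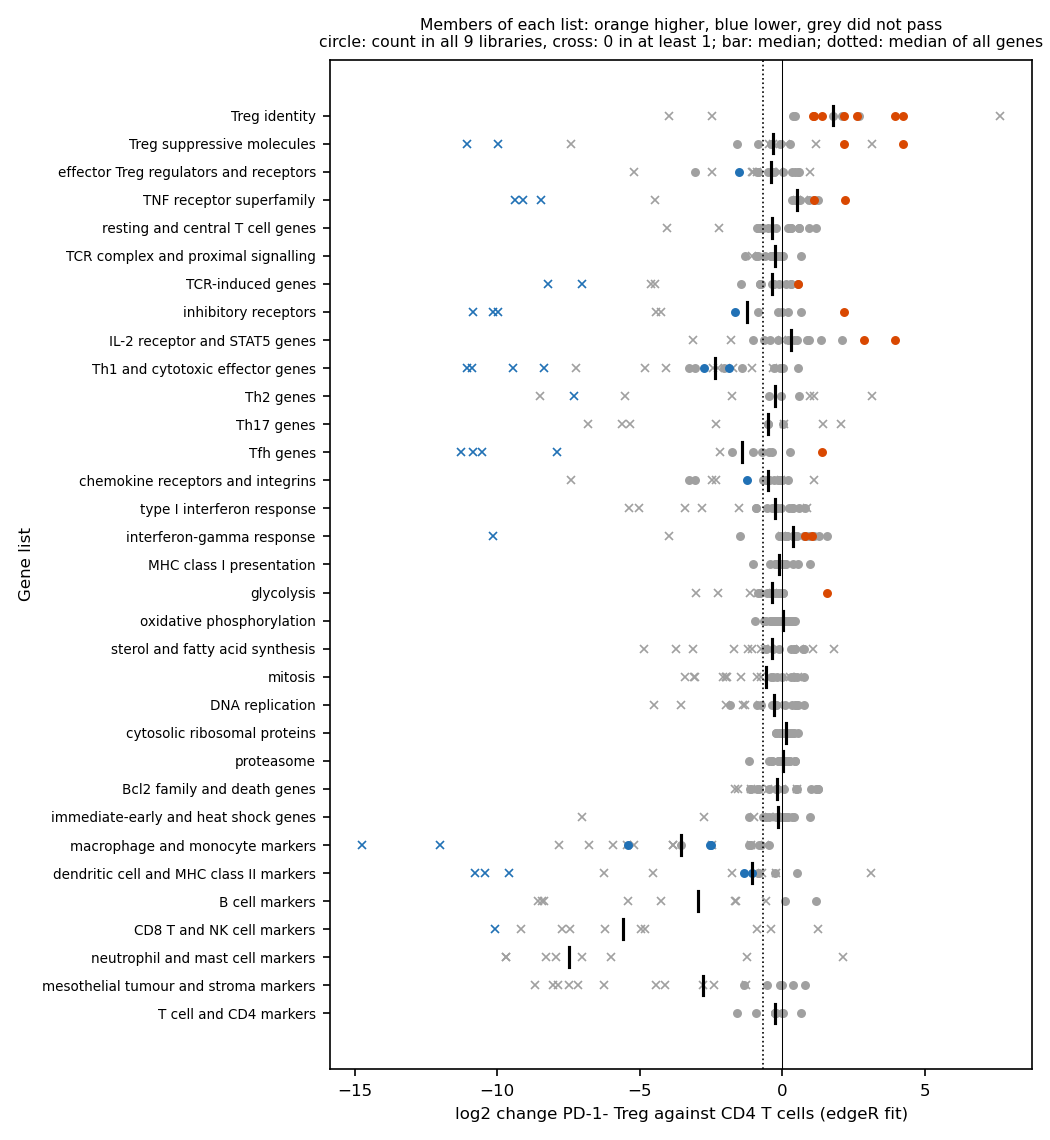
Each symbol is 1 tested member of a gene list, placed at its log2 change in PD-1- Tregs against CD4 T cells; orange was higher, blue lower and grey did not pass, circles had a count in all 9 libraries and crosses a 0 in at least 1. The bar is the list's median and the dotted line the median of all genes tested, -0.68. Treg identity genes lie to the right, and macrophage, Th1 and cytotoxic genes to the left. Other marker lists lie to the left as well. Their medians were -7.48 for neutrophil and mast cell, -5.58 for CD8 T and NK cell, -2.96 for B cell and -2.77 for mesothelial and stromal markers.

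The difference between the cell types was also fitted within each treatment. Within isotype libraries (2 against 2), 46 genes passed (0.351%), 7 higher (0.0534%) and 39 lower (0.298%), and 19 had a count in all 9 libraries (0.361% of such genes). Within anti-PD-L1 libraries (2 against 3), 12 passed (0.0916%), 0 higher and 12 lower, and 2 of the 12 had a count in all 9 libraries (0.038% of such genes). All 86 genes called over both treatments and detected in all 9 libraries had the same sign in both, in fits that use the libraries that chose them. Il2ra was higher by 5.50 within isotype and by 2.60 within anti-PD-L1 on the log2 scale, Tnfrsf4 by 2.96 and 1.51, and Igf2r by 2.25 and 1.46. None of these differences between treatments passed (edgeR adjusted p of the interaction 0.088, 0.271 and 0.391).

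**Figure D5:**
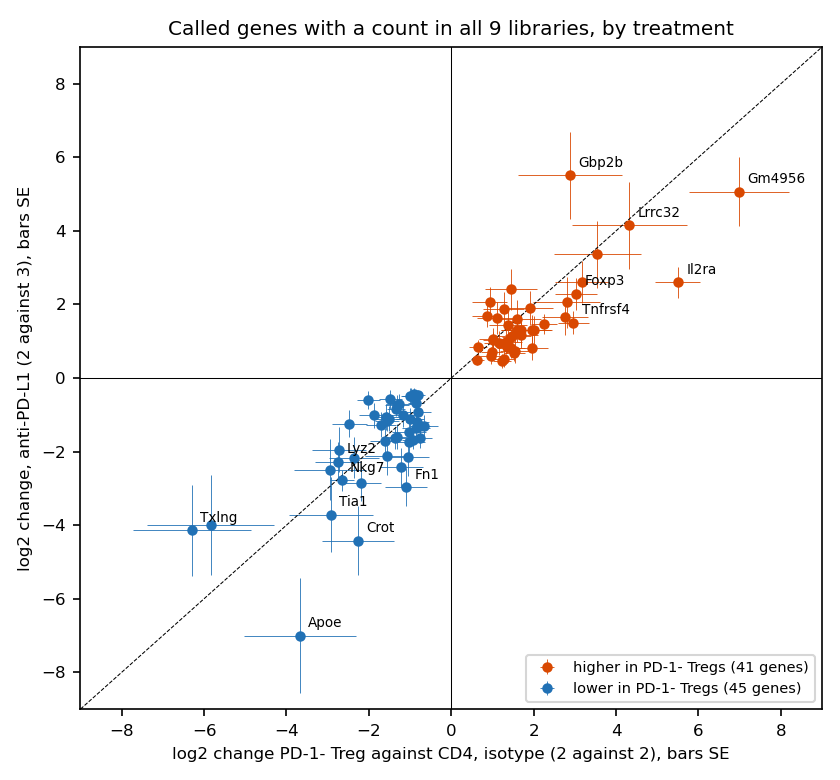
Each point is 1 of the 86 called genes with a count in all 9 libraries. The x axis is its log2 change in PD-1- Tregs against CD4 T cells within isotype libraries and the y axis within anti-PD-L1 libraries, with SE bars; the dashed line marks equal changes. All 86 lie in the quadrants of equal sign, and Il2ra and Gm4956 lie toward the isotype side, Gbp2b and Apoe toward the anti-PD-L1 side.

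For 62 genes (0.473%) the difference between the cell types itself differed between treatments, in 32 toward the Tregs under anti-PD-L1 (0.244%) and in 30 away from them (0.229%), and 9 of them had a count in all 9 libraries (0.171%). Lrch4 was at 35.2 and 36 CPM in isotype Tregs, 402 and 366 CPM in treated Tregs and 119 to 223 CPM in CD4 T cells. Ppp1r18 was at 39.1 and 43.5 CPM, 434 and 308 CPM and 232 to 387 CPM in the same order, and Nedd9, a docking protein of integrin signalling, at 7.35 and 11.7 CPM, 97.7 and 143 CPM and 147 to 174 CPM. The histone gene H2afx was at 2.39 and 0.836 CPM, 195 and 98.6 CPM and 90.3 to 175 CPM. In these 4 genes both isotype Treg libraries were below every other library, and in Lrch4 the treated Tregs were above every CD4 library. Rhot1, a mitochondrial transport GTPase, and Dusp6, a phosphatase that restrains ERK signalling, went the other way. Rhot1 was at 198 and 88.1 CPM in isotype Tregs and at 0.443 and 0.0856 CPM in treated Tregs, with 51.3 to 81.8 CPM in CD4 T cells. Dusp6 was at 14.5 and 67.1 CPM, 0.0739 and 0.0856 CPM, and 78.6 to 129 CPM. In treated PD-1- Treg replicate 1, 0.0739 CPM is 1 read. Both genes were thus near 0 in treated Tregs, and the sizes of their changes are uncertain. The interaction had an edgeR adjusted p of 0.0344 to 0.0429 for the 6 genes, and 0 genes passed it when any single CD4 library was left out, while leaving out any single Treg library gave 1126 to 1491 in fits where 1 Treg group is a single library, assumed to vary like the other groups.

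Promoter sequences of called genes, grouped by the direction of their call in these same data, were read as a description. They come from RefSeq (GRCm38.p6, which has the coordinates of mm10), as the 250 bases before the gene's start, 5′ to 3′ on the gene's strand. Of the genes detected in all 9 libraries, 29 of the 41 higher and 35 of the 45 lower genes had an entry. The STAT letters TTCNNNGAA stood in 3 of the 29 higher (10.3%) and 3 of the 35 lower promoters (8.57%), and in 5.99% of the 10316 promoters of tested genes. The forkhead letters TGTTTAC stood in 0 of both sets and in 2.25% of tested genes, the AP-1 letters TGANTCA in 6.90%, 2.86% and 4.31%, an NF-κB core motif in 3.45%, 2.86% and 1.23%, and the TCF/LEF letters CTTTGAT in 0%, 8.57% and 2.27%, each on both strands. These counts rest on 1 to 3 promoters and are no test. The promoters of Ctla4 (chr1:60908775-60909024, plus strand), Tnfrsf18 (chr4:156026072-156026321, plus strand) and Nkg7 (chr7:43436888-43437137, plus strand) are shown for the checkpoint and costimulatory receptors that were higher and for the gene with the smallest adjusted p. Capitals mark the STAT letters, which are found in Tnfrsf18 and Nkg7, 1 higher and 1 lower gene, and none of the 5 motifs is in the Ctla4 window.
Ctla4: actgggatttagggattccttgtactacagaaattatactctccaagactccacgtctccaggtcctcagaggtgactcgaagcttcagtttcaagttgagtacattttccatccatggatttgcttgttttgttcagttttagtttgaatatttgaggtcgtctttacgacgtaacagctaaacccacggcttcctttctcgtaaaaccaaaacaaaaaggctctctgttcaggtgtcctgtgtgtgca
Tnfrsf18: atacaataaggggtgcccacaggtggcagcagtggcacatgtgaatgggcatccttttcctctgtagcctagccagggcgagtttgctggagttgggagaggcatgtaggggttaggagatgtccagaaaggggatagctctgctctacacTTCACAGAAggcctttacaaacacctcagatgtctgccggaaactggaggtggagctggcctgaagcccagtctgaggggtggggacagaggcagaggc
Nkg7: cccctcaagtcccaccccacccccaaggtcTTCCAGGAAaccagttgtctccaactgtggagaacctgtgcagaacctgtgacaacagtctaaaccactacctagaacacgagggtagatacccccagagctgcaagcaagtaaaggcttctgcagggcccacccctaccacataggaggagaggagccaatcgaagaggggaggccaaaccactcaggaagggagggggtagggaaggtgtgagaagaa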

How the data were processed

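The deposited gene table holds raw read counts, whole numbers per gene without normalization, and a second deposited table holds RPKM values from the authors. Alignment with HISAT2 2.0.4 to mm10 and the tools SAMtools, HOMER 3.12 and DESeq2 are named in the submitters' processing notes; the sources used here do not give counting options, strand or annotation. Of 25124 genes, edgeR 4.0.16 (R 4.3.3) kept 13098 (filterByExpr by group, minimum count 10). TMM factors, a quasi-likelihood fit with robust estimation and a treatment term gave log2 changes, SE (the log2 change over the root of F) and Benjamini-Hochberg adjusted p, with a threshold of 0.05. The common biological coefficient of variation was 1.26. Within-treatment and interaction contrasts came from a fit of 4 group means. Library measures were tested by exact permutation of 4 against 5. DESeq2 1.42.0, limma 3.58.1, RPKM values and other settings were alternatives.

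The members and gene lists were chosen with earlier results of these data known. Named genes are those of the sort, the 12 largest separated changes in each direction, up to 4 called members per list and direction, the most abundant genes at 0 in one arm and 6 interaction genes. Capg, Tbx21, Gzma, Zbtb46, Fcgr1, Ikzf2, Gzmb, C1qb and C1qc were added after their values were seen. The rule also named 34 highest members of lists without a call; after their values were seen, these were given only through their lists. The series text calls the replicates biological.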

Additional observations from a re-analysis of the deposited data

Results flagged for a closer look

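In 8 of 144 sets of 4 or 5 libraries of one cell type, pooled over treatments because the labelled groups hold 2 or 3, a single library lay far from the rest of its cell type. For independent, normally distributed values chance gives about 1 in 20, so the total of 8 is near what chance gives. The sets share libraries and are not independent. Sets whose highest value was under 10 CPM were not examined. In PD-1- Tregs it was isotype replicate 1, low for Foxp3 at 117 CPM and high for Crot at 43.8 CPM, C1qc at 105 CPM and Apoe at 155 CPM. In CD4 T cells it was treated replicate 3, high for Cd14 at 493 CPM, Pltp at 116 CPM, Gzmk at 64 CPM and Msr1 at 180 CPM. That CD4 library also had the highest summed macrophage markers, 10860 CPM, and Y-linked transcripts; their part in its values was not tested.

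The difference between PD-1- Tregs and CD4 T cells changed with treatment for 6 named genes, by an interaction contrast in edgeR. Under anti-PD-L1 minus isotype it was 3.64 for Lrch4, 3.22 for Ppp1r18, 3.64 for Nedd9, 6.51 for H2afx, -8.66 for Rhot1 and -9.10 for Dusp6, all log2.

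Y-linked transcripts, outside the comparison, reached 208 CPM in treated CD4 replicate 3 and 254 CPM in treated PD-1- Treg replicate 2, both numbered 3 in the labels' sample codes. Xist was at 17.9 and 61 CPM there and at 134 to 452 CPM in the other 7 libraries. A single Y-linked read was counted in treated PD-1- Treg replicate 1, and none in the other 6 libraries.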

How the results depend on the processing

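The counts of called genes moved far more than their directions. Higher and lower genes numbered 41 and 808 as reported, 291 and 2292 with DESeq2, 75 and 2027 with limma-voom, 6 and 0 with limma-voom quality weights, 10 and 10 when only genes detected in all 9 libraries were fitted, 0 and 1 with a replicate block, 0 and 0 with the block by code number, and 0 and 0 without the libraries with Y-linked transcripts. Without a low-count filter 27 were higher. Lower genes numbered 1822 and 1410 on log2 RPKM with 0.1 and 1 added and 447 in a fit of all 14 libraries. Leaving out 1 library gave 0 to 94 higher and 1 to 1201 lower genes. Among genes detected in all 9 libraries (41 and 45), the same order gave 279 and 168, 75 and 88, 6 and 0, 10 and 10, 0 and 0, 0 and 0, and 0 and 0, with 27 higher without a filter, 110 and 109 lower on RPKM, and 0 to 93 higher and 1 to 108 lower on leaving out 1 library. Within isotype, within anti-PD-L1 and for the difference between treatments (46, 12 and 62), leaving out 1 library gave 0 to 1815, 0 to 1809 and 0 to 1491 (a group left with 1 library is assumed to vary like the others); 0, 0 and 75 passed without the Y-linked libraries, and 38, 19 and 41 without a filter. The cause was not tested. No called gene named here changed direction. Uncalled Cd274 changed sign to -1.66 with quality weights and -0.36 on RPKM with 0.1 added, Lrch4 to 0.53 with limma-voom, 0.17 without the treatment term, and 0.20 and 0.19 without isotype PD-1- Treg replicate 1 or 2 (range -0.79 to 0.20 on leaving out 1 library), and Rhot1 to 0.06 without the treatment term. Uncalled Gzmb (-0.33) changed sign to 1.52 with limma-voom, 1.05 with quality weights, 0.59 on RPKM with 1 added, 1.62 without the treatment term, 0.71 with a replicate block and 0.35 with the block by code number, and ranged from -1.58 to 1.86 on leaving out 1 library. Of the 34 highest members of lists without a call, 15 changed sign and 4 passed in at least 1 setting. Whether replicate numbers pair the samples is not settled: deviations of same-numbered libraries correlated between -0.038 and 0.028 under both numberings, while Y-linked transcripts were found in the 2 treated libraries of code number 3.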
